A study of Mus musculus with 6 samples.

Results

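The genes described here are 9 complement components and regulators, C1ra, C1s1, C4b, C2, C3, Cfb, Cfd, Cfi and Serping1, chosen by gene name from the 49548 genes of the deposited table. All 9 were found in it, and 8 could be tested, while Cfd was listed at 0 in each of the 6 libraries. The libraries came from colonic adenomas of Col6a1-cre, Rosa26-mTmG mice of the C57/BL6 strain, adult animals of either sex that had all received azoxymethane (AOM), a carcinogen, and dextran sodium sulfate (DSS), which inflames the colon. Cells lacking the lineage markers CD45, EpCAM, CD31 and Ter119 were sorted into 3 GFP+ samples (Col6a1+ CAFs, cancer-associated fibroblasts in which Col6a1Cre had been active) and 3 Tomato+ samples (Col6a1- CAFs). Each sample was a pool of tumors of several mice, and both groups carried the same alleles. The driver marks PDGFRα-high fibroblasts and pericytes in the colon, so that each group is a mixture of cell types, and GFP reports past as well as present activity of Cre.

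Complement is a cascade of secreted proteins that tags surfaces for uptake and lysis. In the classical pathway, C1q binds a surface, the protease C1r activates the protease C1s, and C1s cleaves C4 and C2, whose fragments form the enzyme that cleaves C3. In the alternative pathway, factor B (Cfb) binds cleaved C3 and is cut by factor D (Cfd), which amplifies the deposition of C3. C1 inhibitor (Serping1) inactivates C1r and C1s, and factor I (Cfi) degrades cleaved C3 and C4. The liver supplies most of the proteins in plasma, while fibroblasts, epithelial cells and macrophages make several of them locally, more so in inflamed tissue.

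Reads of the 3' ends of polyadenylated transcripts were counted per gene and divided by a size factor for each library, and these normalized counts are the levels given below. Their sums ranged from 3039152 to 3425249 per library, and between 14530 and 20511 genes had a count, with the fewest in Col6a1+ replicate 1. Where a library shows 0, up to 3 read counts remain possible from counting error alone. This limit is approximate for normalized counts, as the size factors are not known here. The log2 fold change (log2FC) is the difference in mean log2(normalized count + 1), Col6a1+ less Col6a1- CAFs, tested two-sided with limma over 26402 genes. Genes with an adjusted p (Benjamini-Hochberg over all of them) under 0.05 are referred to as called. The added 1 understates the changes of genes with low counts. Col6a1 itself had 861, 1287 and 1941 normalized counts in Col6a1+ CAFs against 182, 321 and 102 in Col6a1- CAFs, the direction that the labels give. Lists of cell type markers differed between the groups too. The summed level of 10 epithelial markers was 6044 to 7415 normalized counts in Col6a1+ CAFs and 26046 to 39978 in Col6a1- CAFs, with none of the markers at 0 and Epcam itself at 615 to 1074 and 3107 to 4129. The 6 mural markers summed to 49737 to 102438 and 1470 to 3763, and the 6 fibroblast markers to 37468 to 41177 and 6799 to 13785, respectively. In such bulk samples, fewer cells of a type and less RNA per cell cannot be told apart.

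**Figure D1:**
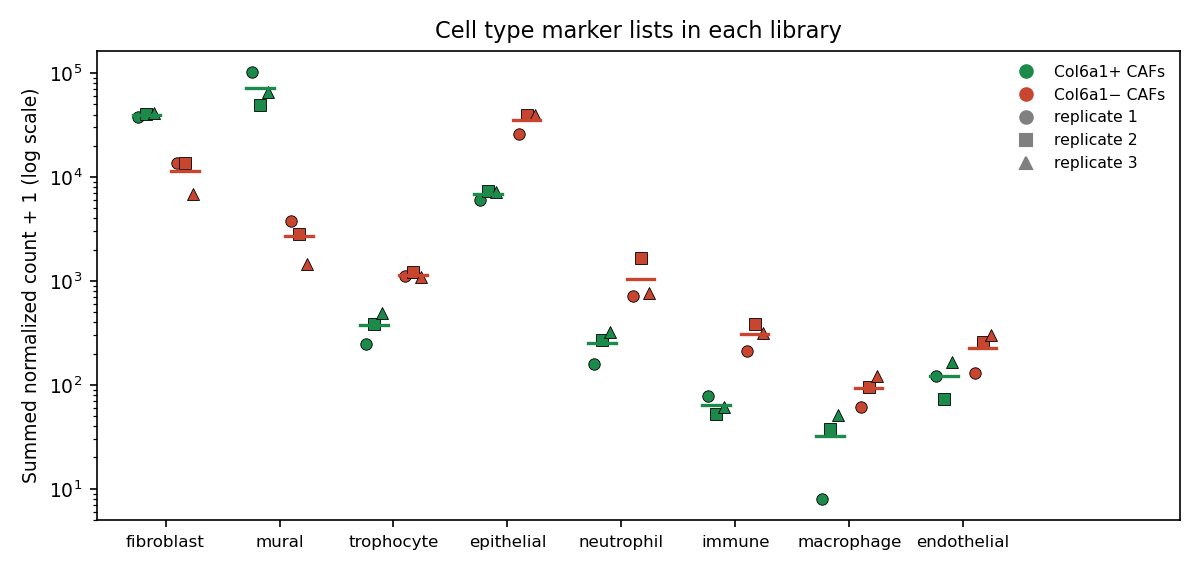
Summed normalized counts (plus 1, log scale) of 8 lists of cell type markers in each of the 3 Col6a1+ (green) and 3 Col6a1- (red) CAF libraries; symbols give the replicate and bars the mean. Fibroblast and mural markers lie higher in every Col6a1+ CAF library, and epithelial markers in every Col6a1- CAF library.

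The complement genes did not move together. Serping1 and C1s1 were higher in Col6a1+ CAFs, whereas Cfb and Cfi were lower, and C1ra, C4b, C2 and C3 did not pass the test. Thus 4 of the 8 tested genes were called, 2 in each direction, while 4.62% of all genes tested were called, 2.66% as higher and 1.96% as lower in Col6a1+ CAFs. The 3 and 3 libraries did not overlap for 5 of the 8 genes, against 19.5% of all genes tested. In 3 of them Col6a1+ CAFs were higher (7.91% of all genes) and in 2 lower (11.6%). Their median log2 fold change was 0.11, and that of all genes tested was -0.27. With the replicate number as a block, limma called none of the 8 genes at an adjusted p of 0.05, nor any other gene. At an unadjusted p under 0.05 in that fit, 3 of the 8 were higher and 2 lower, against 7.01% and 9.72% of all genes tested. Restricted to the 13515 genes whose mean reached 10 normalized counts, the same block called 3 as higher, C1ra among them, and 2 as lower, against 7.26% and 6.44% of those genes.

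**Figure D2:**
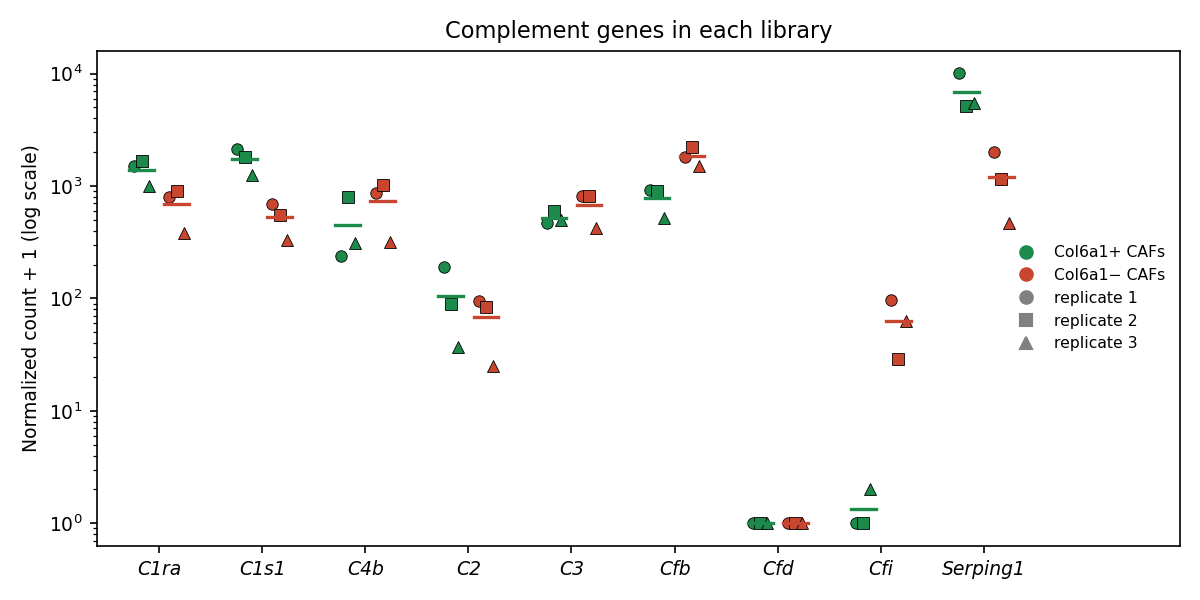
Normalized counts (plus 1, log scale) of the 9 complement genes in each Col6a1+ (green) and Col6a1- (red) CAF library; symbols give the replicate and bars the mean. Serping1, C1s1 and C1ra separate upward in Col6a1+ CAFs and Cfb and Cfi downward, while Cfd lies at 0 throughout.

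The proteases of the C1 complex are encoded by neighbouring genes on chromosome 6, which are transcribed towards each other. C1s1 (ENSMUSG00000038521, chromosome 6 from 124530345 to 124542359 of mm10, minus strand) encodes C1s, which cleaves C4 and C2. It had 2146, 1814 and 1261 normalized counts in Col6a1+ CAFs against 687, 552 and 333 in Col6a1- CAFs. The lowest Col6a1+ CAF library thus held more than the highest Col6a1- CAF library. The means were 1740.3 ± 447 and 524 ± 179 normalized counts (SD, n = 3 each), and the log2FC was 1.76 ± 0.34 (SE) with an adjusted p of 0.0164 in limma. The limma adjusted p was 0.0612 with the replicate block, the smallest value that any gene had in that fit. It was between 0.0540 and 0.132 when any 1 library was left out, with log2 fold changes of 1.46 to 1.98.

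C1ra (ENSMUSG00000055172, chromosome 6 from 124512405 to 124523443, plus strand) encodes C1r, which activates C1s, and its end lies 6901 bases from that of C1s1. Its normalized counts were 1498, 1667 and 1006 in Col6a1+ CAFs and 801, 902 and 382 in Col6a1- CAFs. These groups did not overlap either, but the log2 fold change of 1.06 (95% confidence interval 0.24 to 1.88) did not pass in limma (adjusted p = 0.160). Within a library, the log2 ratio of C1s1 to C1ra was 0.52, 0.12 and 0.33 in Col6a1+ CAFs and -0.22, -0.71 and -0.20 in Col6a1- CAFs. C1s1 was therefore above C1ra in each Col6a1+ CAF library and below it in each Col6a1- CAF library. Levels of different genes are compared here, and their 3' ends may not be counted equally well.

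The promoter windows of C1s1, the trigger protease, and C3, the central component, are shown because the former was called and the latter was not. Whether the change differed between these genes was not tested. Both windows are the 250 bases before the transcription start in RefSeq (GRCm38.p6, the assembly of mm10), given 5' to 3' on the strand of the gene. They lie at chr6:124542360-124542609 for the first of the C1s1 windows and chr17:57228137-57228386 for C3. Capitals mark matches, on either strand, to the TATA box TATAAA or to letters known for binding of NF-κB (GGG and CC with 5 bases of any kind between them), C/EBP (TTGCNNAA), STAT (TTCNNNGAA) or interferon regulatory factors (TTTC, 2 bases of any kind and TTTC).
C1s1: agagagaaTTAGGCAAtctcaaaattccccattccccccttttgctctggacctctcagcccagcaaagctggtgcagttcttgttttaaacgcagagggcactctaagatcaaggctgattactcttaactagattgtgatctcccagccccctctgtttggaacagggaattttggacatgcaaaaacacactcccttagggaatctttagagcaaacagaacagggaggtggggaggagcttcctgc
C3: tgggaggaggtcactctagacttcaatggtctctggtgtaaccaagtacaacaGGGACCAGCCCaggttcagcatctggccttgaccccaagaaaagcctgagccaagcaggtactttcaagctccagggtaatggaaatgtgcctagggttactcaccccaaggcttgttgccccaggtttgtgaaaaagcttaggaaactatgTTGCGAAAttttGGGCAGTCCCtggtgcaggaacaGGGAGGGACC
The printed window of C1s1 held 1 match, to the C/EBP letters on the strand opposite to the gene, 242 to 235 bases before the start. RefSeq has a second, overlapping window for C1s1, at chr6:124542322-124542571, which held 1 match to the NF-κB letters, 35 to 26 bases before its start, so that both genes have NF-κB letters near a start. The window of C3 held a C/EBP match 45 to 38 bases before the start, followed by NF-κB matches at 33 to 24 and 10 to 1 bases, and an overlapping pair of NF-κB matches further upstream, at 197 to 187 bases. Of all 32851 windows of this length, 9.56% held the C/EBP letters and 45.8% the NF-κB letters, so that the latter are common by their looseness alone. Neither printed window held the STAT, interferon or TATA letters, which 7.02%, 2.98% and 12.4% of all windows held. These matches are descriptions of the letters and not of binding. Windows were matched for C1ra, C1s1, C3 and Cfd, and not for C4b, C2, Cfb, Cfi or Serping1.

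Serping1 (ENSMUSG00000023224, chromosome 2 from 84765387 to 84775444) encodes C1 inhibitor, the serpin that blocks C1r and C1s. Its normalized counts were 10080, 5115 and 5454 in Col6a1+ CAFs against 2013, 1157 and 465 in Col6a1- CAFs. The groups lay far apart, with Col6a1+ replicate 1 the highest and Col6a1- replicate 3 the lowest library. The means of 6883 ± 2774 and 1212 ± 775 (SD, n = 3 each) differed 5.68-fold, at a log2FC of 2.67 ± 0.49 (SE) and an adjusted p of 0.0130 in limma. With the block, the limma adjusted p was 0.0630, and without any 1 library it was 0.0673 to 0.125, with log2 fold changes of 2.10 to 3.16. The transcript counts of Serping1 and C1s1 were also compared within each library, and the proteins were not measured. The log2 ratio of Serping1 to C1s1 within a library was 2.23, 1.5 and 2.11 in Col6a1+ CAFs and 1.55, 1.07 and 0.48 in Col6a1- CAFs. The groups overlapped in this ratio, while it was higher in Col6a1+ CAFs in each of the 3 pairs of libraries with the same replicate number. The fibroblast and mural marker sums were higher in the Col6a1+ CAFs as well, and their part in the result was not tested.

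For the substrates C4, C2 and C3 no difference between the groups passed the test. C4b (ENSMUSG00000073418, chromosome 17 from 34728380 to 34743882), which encodes C4, had 237, 802 and 312 normalized counts in Col6a1+ CAFs and 860, 1020 and 318 in Col6a1- CAFs. The groups overlapped, although the Col6a1+ CAF library was the lower in each same-numbered pair, and the log2 fold change of -0.74 had a 95% confidence interval of -1.91 to 0.43 (limma adjusted p = 0.560). C2 (ENSMUSG00000024371, chromosome 17 from 34862604 to 34898265), the partner of C4 in the classical convertase, had 191, 88 and 36 normalized counts against 93, 83 and 24, higher in Col6a1+ CAFs in each pair but overlapping between the groups. Its log2 fold change of 0.56 (95% confidence interval -0.96 to 2.08, limma adjusted p = 0.644) turned to -0.02 without Col6a1+ replicate 1 and to -0.050 without Col6a1- replicate 3. Zbtb12, on the other strand within C2, had 5 to 103 normalized counts, and the sources used here do not say whether counting used the strand.

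C3 (ENSMUSG00000024164, chromosome 17 from 57203970 to 57228136, minus strand), is the component on which all pathways converge. It had 469, 593 and 499 normalized counts in Col6a1+ CAFs and 820, 807 and 420 in Col6a1- CAFs, where replicate 3 fell below every Col6a1+ CAF library. The means were 520.3 ± 64.7 and 682 ± 227 (SD, n = 3 each). The log2 fold change of -0.33 did not pass (limma adjusted p = 0.642), and its 95% confidence interval of -1.06 to 0.39 leaves room for a change of either sign. By Pearson's r over the log2 values of the 6 libraries, the genes most like C3 among 13514 were Gapdh (r = 0.996), Nup93 (r = 0.986), Serpina3n (r = 0.981), Nfu1 (r = 0.973) and Sar1b (r = 0.971). These values describe 6 libraries that share their scaling and were not tested. Like C3, each of the 5 was higher in replicates 1 and 2 of the Col6a1- CAFs than in replicate 3. This follows from their choice by likeness to C3. Serpina3n, an acute phase serpin, had 145, 242 and 136 normalized counts in Col6a1+ CAFs and 560, 509 and 135 in Col6a1- CAFs.

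Cfb (ENSMUSG00000090231, chromosome 17 from 34856374 to 34862518) encodes factor B, the catalytic part of the alternative convertase. It had 923, 898 and 518 normalized counts in Col6a1+ CAFs and 1813, 2245 and 1494 in Col6a1- CAFs. Every Col6a1- CAF library lay above every Col6a1+ CAF library. The means were 779.7 ± 227 and 1851 ± 377 (SD, n = 3 each), with a log2FC of -1.27 ± 0.31 (SE) and an adjusted p of 0.0468 in limma. This call was close to the threshold. The limma adjusted p was 0.0779 with the replicate block, 0.0555 when 0.1 was added in place of 1, and between 0.0778 and 0.215 when any 1 library was left out, with log2 fold changes of -1.42 to -1.0. The epithelial markers moved in the same direction, with 8 of the 10 called as lower in Col6a1+ CAFs, and their part in the result was not tested.

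Within a library the size factor cancels, so the ratio of C1s1 to Cfb restates their opposite changes without scaling. The log2 ratio of C1s1 to Cfb was 1.22, 1.01 and 1.28 in the Col6a1+ CAF libraries and -1.40, -2.02 and -2.17 in the Col6a1- CAF libraries. The groups did not overlap, with means of 1.17 ± 0.14 and -1.86 ± 0.41 (SD, n = 3 each), a difference of 3.03. This separation follows from the opposite changes of both genes and adds no support to them. For C3 against Cfb the ratios were -0.98, -0.60 and -0.05 in Col6a1+ CAFs and -1.14, -1.48 and -1.83 in Col6a1- CAFs. These ratios were chosen with the values known and are given without a test.

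**Figure D3:**
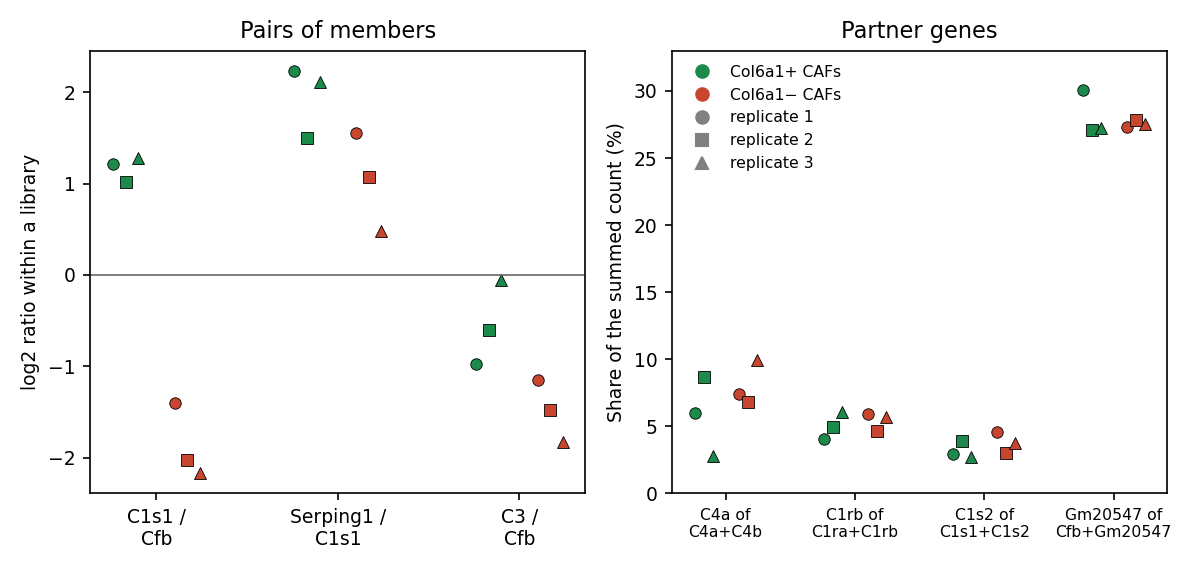
Left, log2 ratio of the normalized counts of a pair of complement genes within each library. Right, share of a partner gene in the summed count, in percent. Green, Col6a1+ CAFs; red, Col6a1- CAFs; symbols give the replicate. The C1s1 to Cfb ratio is higher in every Col6a1+ CAF library, as follows from the opposite changes of both genes. Gm20547 holds 27.1% to 30.1% of its sum with Cfb in all libraries.

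Cfi (ENSMUSG00000058952, chromosome 3 from 129835884 to 129875332) encodes factor I, the protease that inactivates cleaved C3 and C4. It was detected in the Col6a1- CAF libraries, with 96, 28 and 62 normalized counts, while the Col6a1+ CAF libraries had 0, 0 and 1. The mean of the Col6a1- CAFs was 20.7-fold above the limit of 3 counts for a library at 0. This figure leaves out the size factors, the spread of the Col6a1- CAF libraries and the 1 count of Col6a1+ replicate 3. The log2 fold change of Cfi, -5.48, depends on the added constant and was -7.95 when 0.1 was added in place of 1. Its limma adjusted p was 0.00964, and 0.0708 with the block. It also passed without any 1 of the Col6a1+ CAF libraries, but not without Col6a1- replicate 1 (adjusted p = 0.0973), replicate 2 (0.0596) or replicate 3 (0.108). As for Cfb, the epithelial marker sum was higher in the Col6a1- CAF libraries, and so were those of the neutrophil (711 to 1671 against 157 to 321), trophocyte (1101 to 1211 against 244 to 496), immune (212 to 388 against 51 to 78) and macrophage markers (60 to 121 against 7 to 50). Their part in the result was not tested.

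Cfd (ENSMUSG00000061780, chromosome 10 from 79890853 to 79892656) encodes factor D, also known as adipsin, the protease that activates factor B. It was listed at 0 in all 6 libraries, as were 5114 of the 21960 protein-coding genes of the table but none of 10 housekeeping genes examined. Of 5 adipocyte markers, Adipoq and Lep were at 0 as well, while Pparg had 28 to 113 normalized counts, Plin1 0 to 43 and Cidec 0 to 9.

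Some of these genes have close relatives or overlapping genes with which reads could be shared. In GENCODE transcripts (release M21), 53.0% of the 50-base stretches in the last 300 bases of C4b also occur in C4a, and 20.3% of those of C1s1 occur in C1s2. None of those of the longest C1ra transcript occur in C1rb, but 66.1% of those of C1rb occur in C1ra. The partners held little of the summed counts. C4a made up 2.80% to 9.92% of the sum with C4b over the 6 libraries, C1rb 4.04% to 6.07% of that with C1ra, and C1s2 2.70% to 4.58% of that with C1s1. Cfb shares its 3' end with Gm20547, a gene on the same strand that spans Cfb and part of C2 and ends 38 bases short of Cfb, and 84.9% of the stretches of Cfb occur in it. Gm20547 had 397, 334 and 194 normalized counts in Col6a1+ CAFs and 681, 865 and 567 in Col6a1- CAFs, a near constant share of the sum. When each gene was summed with its partner, an alternative chosen after seeing the data, the call of C1s1 remained and that of Cfb did not (limma adjusted p = 0.0507), at a log2 fold change of -1.26 for the sum against -1.27 for Cfb alone.

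Of the other genes of the complement system, 50 were listed by role, and 38 of their 51 entries in the table had a count (Itgam has 2 entries). Of these, 3 were called by limma as higher in Col6a1+ CAFs, Vtn and Cd59a among them, against 2.66% of all genes tested. The median log2FC over the 38 entries was 0.08. No entry was called as lower. At an unadjusted p under 0.05, 6 were higher and 5 lower, against 6.63% and 9.4% of all genes, and limma-voom called 3 as higher and 1 as lower, against 2.92% and 3.02%.

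Vtn encodes vitronectin, a matrix protein that also binds the terminal complex. It had 67, 130 and 168 normalized counts in Col6a1+ CAFs and 0, 7 and 0 in Col6a1- CAFs. Its log2FC was 5.84 ± 0.98 (SE), and its adjusted p in limma was 0.00851 without and 0.0729 with the block. As 2 of the 3 Col6a1- CAF libraries were at 0, the size depends on the added constant, with a log2FC of 8.10 when 0.1 was added in place of 1, and it ranged from 5.34 to 6.84 without any 1 library. Cd59a, the membrane inhibitor of the terminal complex, had 68, 59 and 110 against 11, 15 and 16, at a log2FC of 2.38 ± 0.54 (SE), with adjusted p-values in limma of 0.0335 without and 0.0974 with the block. Vtn kept its call without Col6a1+ replicate 1 or Col6a1- replicate 2 and Cd59a without Col6a1+ replicate 1, and neither kept it in the other fits that left out 1 library, where the adjusted p reached 0.105 for Vtn and 0.176 for Cd59a. The mural marker sum was higher in each Col6a1+ CAF library as well, and its part in these results was not tested.

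The levels of some further inhibitors pointed in different directions, and none of them was called. Cd55, which speeds the decay of the convertases, and C4bp, a cofactor for the cleavage of C4, are named after seeing their values. Cd55 had 97, 45 and 41 normalized counts in Col6a1+ CAFs and 143, 246 and 164 in Col6a1- CAFs, and C4bp had 5, 13 and 24 against 55, 71 and 67. Neither overlapped between the groups, but the log2 fold changes of -1.65 for Cd55 (limma adjusted p = 0.0658) and -2.34 for C4bp (limma adjusted p = 0.0785) did not pass. Among genes whose mean reached 10, the limma adjusted p was 0.0478 for Cd55 and 0.0528 for C4bp, and with the block in addition it was 0.0451 and 0.0453. With the block over all genes it was 0.186 and 0.140, and without any 1 library it ranged from 0.0348 to 0.273 for Cd55, which passed only without Col6a1+ replicate 1, and from 0.0735 to 0.287 for C4bp. The epithelial marker sum was higher in each Col6a1- CAF library as well, and its part in these values was not tested. Clu, which encodes the soluble inhibitor clusterin, had 488 to 849 normalized counts in Col6a1+ CAFs and 550 to 614 in Col6a1- CAFs, so that the ranges overlapped. Cr1l, which encodes the rodent convertase inhibitor Crry, had 43 to 196 and 103 to 114, and Cd46, a membrane cofactor, 5 to 21 and 3 to 9.

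**Figure D4:**
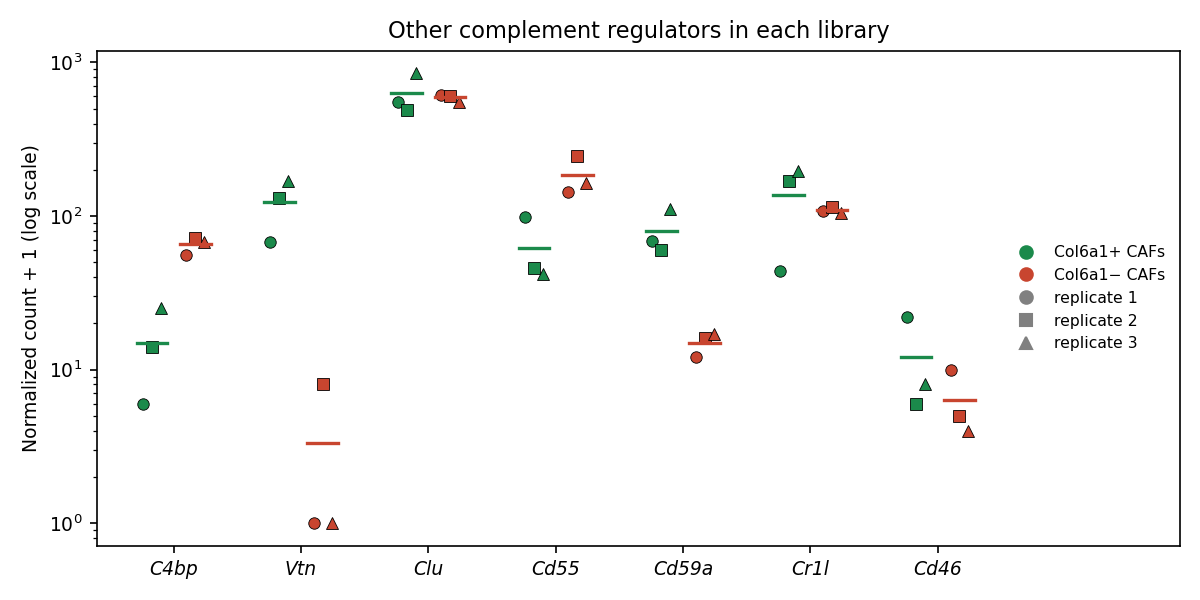
Normalized counts (plus 1, log scale) of 7 further complement regulators in each Col6a1+ (green) and Col6a1- (red) CAF library; symbols give the replicate and bars the mean. Vtn and Cd59a lie higher in each Col6a1+ CAF library, and C4bp and Cd55 in each Col6a1- CAF library.

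The remaining roles were represented sparsely. Among the 16 recognition genes none was called, and the best covered was C1rb, a paralog of C1ra, with 63, 87 and 65 normalized counts in Col6a1+ CAFs and 50, 44 and 23 in Col6a1- CAFs (log2 fold change 0.92, limma adjusted p = 0.399). The genes for the chains of C1q, which macrophages make, were close to 0, with C1qa at 0 to 4, C1qb at 0 to 9 and C1qc at 0 to 6 normalized counts per library. Of 7 macrophage markers, Csf1r (0 to 5), Adgre1 (0 to 1) and Cd163 (0 to 1) were at or near 0, while Lyz2 (0 to 31), Cd68 (0 to 38), Mrc1 (0 to 24) and Fcer1g (7 to 34) had counts. Their sum was 7 to 50 normalized counts in Col6a1+ CAFs and 60 to 121 in Col6a1- CAFs. C4a, besides Cfp the other gene listed for the convertases, had 15, 76 and 9 against 69, 74 and 35 (limma adjusted p = 0.451). Of the 7 genes of the terminal pathway, 6 were at 0 in all libraries, and C6 had at most 9 normalized counts. Among the receptor genes, Cd93 had the highest level, with 109, 213 and 302 normalized counts in Col6a1+ CAFs and 37, 127 and 141 in Col6a1- CAFs. Its log2 fold change of 1.12 had a 95% confidence interval of -0.12 to 2.37 (limma adjusted p = 0.369). The receptor genes for the cleaved peptides of C3 and C5 had at most 1 (C3ar1) and 27 (C5ar1) normalized counts.

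**Figure D5:**
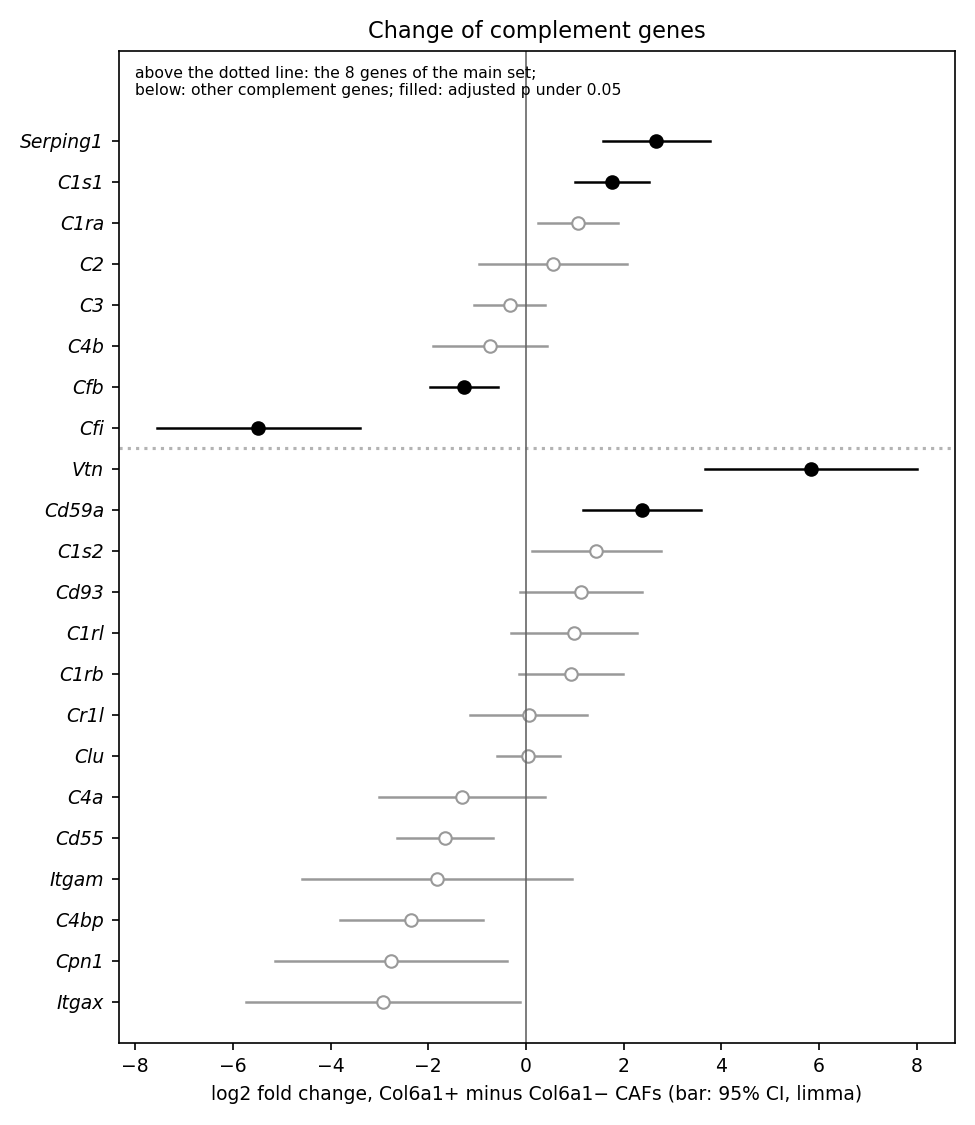
Log2 fold change (Col6a1+ minus Col6a1- CAFs) with its 95% confidence interval from limma for the 8 tested complement genes of the main set (above the dotted line) and for other complement genes whose mean reached 10 (below); filled points had an adjusted p under 0.05. Serping1 (2.67) and Cfi (-5.48) mark the ends of the main set, and Vtn (5.84) has the highest value below the line. The sizes for Cfi and Vtn depend on the added constant.

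The libraries of a group also differed among themselves. Col6a1- replicate 3 was the lowest of its group for 7 of the 8 tested genes, the exception being Cfi, and Col6a1+ replicate 3 was the lowest of its group for 4. The sum of the complement genes was 15544, 10977 and 9087 normalized counts in Col6a1+ CAFs against 7183, 6794 and 3498 in Col6a1- CAFs. Serping1 alone held 10080, 5115 and 5454 of it against 2013, 1157 and 465. It was the largest member in each Col6a1+ CAF library, while in Col6a1- replicates 2 and 3 Cfb held more (2245 and 1494). The means of C1ra, C1s1 and C2 were higher in Col6a1+ CAFs too, whereas those of Cfb, Cfi, C4b and C3 were lower. Col6a1- replicate 3 also had the lowest sum of the fibroblast markers. Without it, the log2 fold changes were 1.46 for C1s1, 2.10 for Serping1, -1.42 for Cfb and -5.40 for Cfi. Without both libraries of replicate 3, an alternative chosen after seeing the data that leaves 2 libraries per group, they were 1.68, 2.23, -1.15 and -5.73. Limma then called 0 genes, while 3 of the complement genes were higher and 2 lower at an unadjusted p under 0.05, against 4.42% and 5.23% of all genes tested.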

How the data were processed

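3' mRNA sequencing (QuantSeq, Ion Proton) of 3 Col6a1+ and 3 Col6a1- CAF samples was analysed, grouped by the labels. The authors mapped reads with TopHat2 and Bowtie2 to mm10, counted them per gene with GenomicRanges and normalized them with DESeq through metaseqR. Their deposited table gives log2(normalized count + 1) per library, and the normalized count is whole for 100% of values (tolerance 1e-06). Its fold changes, p-values and false discovery rates from the authors' own comparison were not used, nor were 6 further columns of per-sample values.

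The log2 values were fitted with limma 3.58.1 in R 4.3.3 (lmFit, then eBayes with a mean trend, prior degrees of freedom 6.48, residual 4) over the 26402 genes above 0 in any library, as the values are not read counts. The call threshold was an adjusted p of 0.05, and the script was tested on simulated data. Sequences are from RefSeq (GRCm38.p6) and plots from Matplotlib 3.10.9 in Python 3.11.15. Of the gene identifiers also in GENCODE M21, 91.5% had identical coordinates there.

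Deviations from the group means over 13515 genes correlated at 0.245, 0.125 and 0.144 between libraries with the same replicate number and at -0.245 to 0.150 otherwise. These values overlap, but the study states 3 pools of tumors, so the numbers were read as possible pairs. The main fit left the pairing out, and the replicate block took it up as an alternative. P-values measure the spread between these pools. The genes, lists and tests were chosen with earlier results of these data known. Named are the 9 genes, other complement genes with an adjusted p under 0.05 or, in roles without one, with the highest level, the 5 genes most like C3, partner genes and Col6a1. Cd55, C4bp, Clu, Cr1l, Cd46, the C1q chains, C3ar1, C5ar1 and single markers fall outside this rule and were chosen after their values were seen. The result for 1 gene that the rule names is not reported here. Alternatives were other scalings, filters, pseudocounts, limma-voom, the replicate block, an unadjusted criterion and leaving out libraries.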

Additional observations from a re-analysis of the deposited data

How the results depend on the processing

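Both calls in each direction among the complement genes were made under library size alone, equal medians, the minimum mean of 10 and limma-voom. Their log2 fold changes kept their direction in every alternative tried, and so did those of C1ra, C4b and C3. C2 turned to -0.02 without Col6a1+ replicate 1 and to -0.050 without Col6a1- replicate 3 (range without any 1 library -0.050 to 1.17). Clu turned to -0.00098 with library size alone, -0.18 without Col6a1+ replicate 3 (range -0.18 to 0.22) and -0.23 without both libraries of replicate 3. Only 1 gene was called as lower with at least 10 counts in every library (a filter that removes Cfi), with a pseudocount of 0.1 and with partner genes summed. With the replicate block limma called 0 of the complement genes in either direction, and 0 of all genes, with 1851 genes higher and 2567 lower at an unadjusted p under 0.05. The block changed each of the 4 calls, and with the minimum mean of 10 it called 871 genes as lower. When libraries were left out, the complement genes called as higher numbered 0 in each fit and those called as lower 0 to 1. For the other complement genes the ranges were 0 to 3 and 0 to 2, and for all genes 0 to 453 and 0 to 442, against 703 and 517. The smallest counts are those without both libraries of replicate 3, with fewer samples, and without Col6a1- replicate 1, at 11 and 1. Of the other complement genes, 1 was called as lower with library size alone, at least 10 in every library, the minimum mean of 10 and limma-voom, and 2 with the block and that minimum. By the unadjusted criterion (raw p under 0.05 and a log2 change beyond 1 either way), the other complement genes numbered 5 higher and 5 lower, and all genes 1607 and 2273. Limma-voom called 798 of all genes as lower and the pseudocount of 0.1 called 336. The cause of these shifts was not tested. Depth limits the genes near 0, for which a level of 0 allows up to 3 read counts.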
